A study of Mus musculus with 4 samples.

Results

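Expression of 9 genes of the Sox transcription factor family was examined in mouse embryonic fibroblasts (MEFs), primary cells grown out of dissociated embryos. The genes were Sox2, Sox4, Sox5, Sox6, Sox8, Sox10, Sox11, Sox12 and Sox13, taken by symbol, 9 of the 36846 gene symbols in the deposited table and 9 of its 19 numbered Sox genes. They were grouped by their known subgroups, with Sox2 in SoxB1, Sox4, Sox11 and Sox12 in SoxC, Sox5, Sox6 and Sox13 in SoxD, and Sox8 and Sox10 in SoxE. Sox9, the cartilage regulator of the SoxE subgroup, is not among them, although Sox5 and Sox6 are known as its partners in cartilage.

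RNA was sequenced from C57BL/6 fibroblasts that were wild type (WT, 2 libraries) or carried a Dnmt3l knockout (Dnmt3l-KO, 2 libraries). The deleted gene codes for a catalytically inactive partner that stimulates de novo DNA methylation by Dnmt3a and Dnmt3b. All lines were derived from embryos of day 13.5 to 14.5 whose parents were both Dnmt3l heterozygotes, were kept in serum-containing medium and were used at passage 4. RNA depleted of ribosomal RNA was copied with random primers. The comparison was made to look for genes that could bear on the better outcome of cloning by nuclear transfer from Dnmt3l-KO donor cells. In such bulk RNA, fewer cells of a type and less RNA per cell cannot be told apart. The labels do not say how many embryos or lines stand behind the 2 libraries of a genotype, so p-values measure only the spread between these libraries, which may be technical.

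Total estimated counts ranged from 40681328 to 51465395 per library. Dnmt3l itself had 6 counts and 1 count in WT and 0 in both Dnmt3l-KO libraries, too few to check the genotype labels. All 12 fibroblast markers listed for the check were measured, with a summed level of 6361 to 7193 FPKM (fragments per kilobase of transcript, scaled to the depth of the library) over the 4 libraries. Marker lists of other cell types were far lower in sum, at 3.71 to 8.51 FPKM for neural crest and glia and 43.9 to 69.8 FPKM for cartilage. The muscle list summed to 75.3 to 153 FPKM, with Acta1 alone at 75.1 to 152.6 FPKM. The neural progenitor and neuron list summed to 46.5 to 55.7 FPKM. Of these 12 neural markers, 2 had 0 counts in all 4 libraries, Pax6 and Neurog2. Tubb3 was measured at 18.2 to 25.5 FPKM, Stmn2 at 8.78 to 14.7 FPKM and Nes at 7.83 to 14.8 FPKM.

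Sox proteins bind the minor groove of DNA through a high mobility group (HMG) box related to that of Sry and bend the helix there. Outside this box the subgroups differ, with activation domains in SoxB1, SoxC and SoxE and a coiled coil without an activation domain in SoxD. Sox2 holds pluripotent and neural progenitor states and is a factor of induced reprogramming. SoxC genes act in mesenchymal and neuronal progenitors, SoxD genes modulate other Sox factors, and Sox8 and Sox10 act in neural crest and glia.

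The first 60 bases of the HMG-box coding sequence show how close the relatives are, which bears on how reads can be told apart between them. They were read 5′ to 3′ from GENCODE M21 transcripts (GRCm38), and capitals mark the 29 of 60 bases that are the same in all 9 genes.
Sox2: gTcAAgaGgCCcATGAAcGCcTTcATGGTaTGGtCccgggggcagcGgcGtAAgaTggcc
Sox4: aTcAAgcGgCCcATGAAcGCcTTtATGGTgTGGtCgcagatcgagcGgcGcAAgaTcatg
Sox11: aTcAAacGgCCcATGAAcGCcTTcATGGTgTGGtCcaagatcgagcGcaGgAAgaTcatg
Sox12: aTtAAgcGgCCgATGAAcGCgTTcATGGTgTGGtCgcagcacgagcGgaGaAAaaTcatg
Sox5: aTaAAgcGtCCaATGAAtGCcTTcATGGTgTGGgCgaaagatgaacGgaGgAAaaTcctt
Sox6: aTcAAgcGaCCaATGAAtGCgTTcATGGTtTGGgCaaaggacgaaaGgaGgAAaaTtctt
Sox13: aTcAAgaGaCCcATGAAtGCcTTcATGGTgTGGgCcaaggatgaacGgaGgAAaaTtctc
Sox8: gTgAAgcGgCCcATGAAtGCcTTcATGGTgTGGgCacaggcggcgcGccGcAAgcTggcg
Sox10: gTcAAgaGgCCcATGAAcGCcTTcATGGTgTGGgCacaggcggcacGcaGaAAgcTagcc

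Over the whole 231 bases of the box, 83 were shared by all 9 genes. The 7 pairs within a subgroup were 81.4% to 89.2% identical, and the 29 pairs across subgroups 52.4% to 68.8%. Sox4 and Sox11 were the closest pair at 89.2%, and the longest run of identical bases between their transcripts was 48 bases. Across subgroups the longest such run was 30 bases, between Sox2 and Sox10. No source used here states the read length, so whether a read could fall within such a run could not be examined.

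The 9 genes lie on 9 different chromosomes (GRCm38, RefSeq), so none neighbours another. The SoxC genes are compact, with Sox4 on chromosome 13 (28948919 to 28953699), Sox11 on chromosome 12 (27334268 to 27342718) and Sox12 on chromosome 2 (152393611 to 152398046). The SoxD genes are long, with Sox5 on chromosome 6 (143828425 to 144782287) spanning 953863 bases, Sox6 on chromosome 7 (115470872 to 116040776) 569905 bases and Sox13 on chromosome 1 (133382300 to 133424459) 42160 bases. Sox8 lies on chromosome 17 (25565893 to 25570686) and Sox10 on chromosome 15 (79154913 to 79164490). All but Sox2 are on the minus strand.

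**Figure D1:**
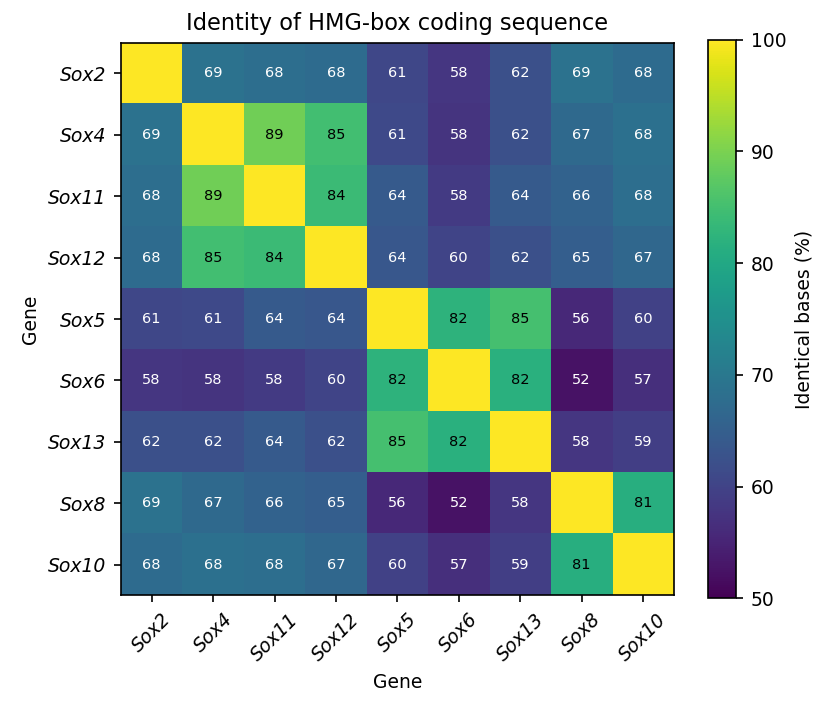
Share of identical bases (percent, color and number) between the HMG-box coding sequences of each pair of the 9 Sox genes, ordered by subgroup. The blocks along the diagonal, from 81.4% to 89.2%, are the SoxC, SoxD and SoxE subgroups.

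The Sox genes spanned a wide range of levels, and SoxC genes held most of their summed level. Sox4, SoxC, was the highest with a mean of 24.97 FPKM over the 4 libraries, above 83.7% of the 14760 genes tested. Sox11 followed at 4.17 FPKM, then Sox2 at 2.46, Sox12 at 2.05, Sox6 at 1.802, Sox5 at 0.937, Sox13 at 0.721, Sox10 at 0.318 and Sox8 at 0.111 FPKM, the last above 4.11% of the genes tested. The ranges of Sox4 and Sox11 over the libraries did not overlap, nor did those of Sox13, Sox10 and Sox8. From Sox11 down to Sox13, the range of each gene overlapped with that of the next in the order. Sox2 and Sox12, and Sox12 and Sox6, changed places in 1 of the 4 libraries, as did Sox5 and Sox13. The SoxC genes together made up 86.6% and 80.4% of the summed FPKM of the 9 genes in WT and 85.5% and 80.7% in Dnmt3l-KO.

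**Figure D2:**
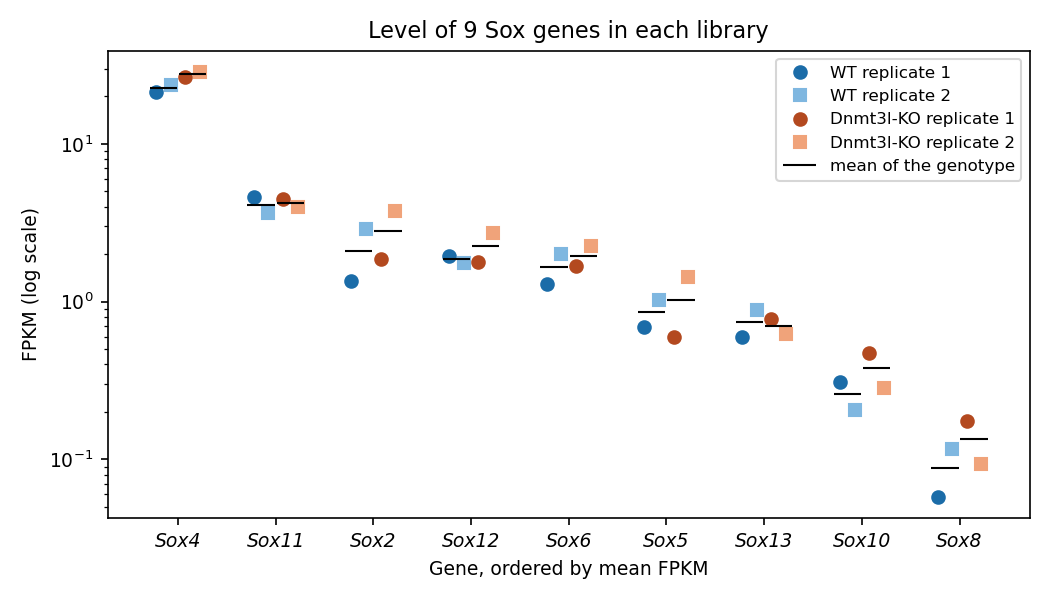
Level (FPKM, log scale) of each of the 9 Sox genes in the 4 libraries, with blue for WT, orange for Dnmt3l-KO, circles for replicate 1, squares for replicate 2 and black lines for the mean of each genotype (n = 2). Sox4 lies at 21.2 to 28.5 FPKM, and the symbols of the genotypes are interleaved or overlapping in range for each gene but Sox4.

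Between the genotypes, 0 of the 9 Sox genes passed edgeR's quasi-likelihood test, with 1 of them, Sox4, at an unadjusted p under 0.05. All 9 passed the filter on low counts. Over all 14760 genes tested, 0.0203% were called and 4.15% had an unadjusted p under 0.05. DESeq2's Wald test and limma on log2(FPKM + 1) values also called 0 of the 9. The adjusted p of each of the 9 genes was 0.999 in edgeR. By fold change, 7 of the 9 were above 0 and 2 below, with a median log2 fold change of 0.23, where 51.3% of all genes tested were above 0 and their median was 0.0062. The median of the Sox genes was 0.053 without Dnmt3l-KO replicate 2.

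The SoxC gene Sox4, which acts in mesenchymal and neural progenitor survival, had 73.5 and 74.5 CPM (counts scaled to a common library size) in WT and 86.8 and 89.6 CPM in Dnmt3l-KO. The 2 genotypes were thus separate, with Dnmt3l-KO the higher, as was the case for 16.2% of all genes tested, and Sox4 was the only one of the 9 whose genotypes did not overlap. Its log2 fold change was 0.25 ± 0.085 (SE), with a 95% interval from 0.037 to 0.47 (edgeR, unadjusted p = 0.030, adjusted p = 0.999). The value stayed between 0.23 and 0.27 with each library left out. The counts behind it, 3110 to 4333 per library, were the largest among the 9 genes. A lncRNA gene, Gm46405, spans Sox4 in RefSeq and was not analysed here, and the library kit in the labels is not stated to mark strand.

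Sox11, the closest relative of Sox4 and a neuronal and mesenchymal progenitor factor, had 45.2 and 32.8 CPM in WT and 41.8 and 35.4 CPM in Dnmt3l-KO. Replicate 1 was the higher in each genotype, and both Dnmt3l-KO values lay between the WT values. This gave a log2 fold change of -0.015 ± 0.19 (SE), with a 95% interval from -0.50 to 0.47. It was 0.23 with WT replicate 1 left out and 0.096 with Dnmt3l-KO replicate 2 left out. Sox4 was 4.62 and 6.47 times as high as Sox11 by FPKM in WT, and 5.91 and 7.20 times in Dnmt3l-KO, so these ratios overlapped between the genotypes.

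Sox12, the third SoxC gene and the weakest activator of the subgroup, had 10.04 and 8.29 CPM in WT and 8.70 and 12.8 CPM in Dnmt3l-KO. Dnmt3l-KO replicate 2 was the highest library, and Dnmt3l-KO replicate 1 lay within the WT range. For Sox12 the log2 fold change was 0.23 ± 0.23 (SE), with a 95% interval from -0.37 to 0.83, and it was -0.078 without Dnmt3l-KO replicate 2.

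Sox2 was detected in all 4 libraries, with WT counts of 182 and 313 and Dnmt3l-KO counts of 252 and 407. These came to 3.86 and 7.50 CPM in WT and 5.05 and 9.74 CPM in Dnmt3l-KO. Replicate 2 was the higher in each genotype, Dnmt3l-KO replicate 1 lay within the WT range, and the genotypes overlapped. Sox2 had a log2 fold change of 0.38 ± 0.45 (SE), with a 95% interval from -0.79 to 1.55. It was -0.024 with WT replicate 1 left out and -0.17 with Dnmt3l-KO replicate 2 left out, against 0.93 with WT replicate 2 left out and 0.78 with Dnmt3l-KO replicate 1 left out.

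Sox2 (chromosome 3, 34649995 to 34652461, GRCm38, plus strand) lies within the lncRNA gene Sox2ot (34560381 to 34677993) on the same strand. Sox2ot had 2 and 4 counts in WT and 2 counts and 1 count in Dnmt3l-KO, so few of the reads in this region were assigned to it. No source used here states how reads that match both were divided. The libraries with more Sox2 also had higher sums of the neural crest and glia markers, at 5.32 FPKM in WT replicate 2 and 8.51 in Dnmt3l-KO replicate 2 against 3.71 and 4.11 FPKM in the respective replicate 1. The 12 cartilage markers listed, 11 of them in the table, went the same way, at 57.7 and 69.8 against 43.9 and 47.3 FPKM, while the neural progenitor and neuron markers went the other way, at 47.0 and 46.5 against 51.4 and 55.7 FPKM. The part of these cells in the Sox2 level was not tested.

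Of the 16 pluripotency genes listed as partners of Sox2, 6 passed the filter and 0 were called in edgeR in either direction. Over all genes tested, 0.0203% were called. An unadjusted p under 0.05 was found for 2 of the 6, against 4.15% of all genes tested. Among the 6, 5 were above 0 and 1 below, where 51.3% of all genes tested were above 0. Their median log2 fold change was 0.31, against 0.0062 over all genes tested. The reprogramming factor Klf4 had 46.5 and 48.0 CPM in WT and 62.1 and 54.3 CPM in Dnmt3l-KO (log2 fold change 0.30 ± 0.11 SE, unadjusted p = 0.039, adjusted p = 0.999 in edgeR). The proto-oncogene Myc had 29.7 and 28.8 CPM in WT and 47.3 and 34.8 CPM in Dnmt3l-KO (0.49 ± 0.17 SE, unadjusted p = 0.032, adjusted p = 0.999 in edgeR). In both genes the Dnmt3l-KO libraries lay above the WT libraries, as was the case for 16.2% of all genes tested. The remaining factor of the reprogramming set, Pou5f1, had WT counts of 0 and 4 and Dnmt3l-KO counts of 2 and 0, around the floor of 3 counts per library. Klf2 and Tbx3, which act in the pluripotency network, had log2 fold changes of 0.39 ± 0.16 and 0.33 ± 0.16 (SE). Nanog and Lin28b, which also passed the filter, had log2 fold changes of -0.18 ± 0.75 and 0.052 ± 0.51 (SE). Their counts per library were 4 to 13 and 18 to 50. Summed over the list, the level was 34.4 and 36.8 FPKM in WT and 51.8 and 43.2 FPKM in Dnmt3l-KO. Nearly all of this sum came from Klf4, Myc, Klf2 and Tbx3, so it does not describe the rest of the list. Of the list, 7 genes had 0 counts in all 4 libraries, among them Lin28a, Utf1 and Zfp42, which mark pluripotent cells.

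The SoxD gene Sox6, known from cartilage, muscle fibre type and red blood cell development, was the highest of its subgroup. It had 13.7 and 18.9 CPM in WT and 16.3 and 21.1 CPM in Dnmt3l-KO. Each genotype had its higher value in replicate 2, and the ranges overlapped. Sox6 had a log2 fold change of 0.20 ± 0.22 (SE), with a 95% interval from -0.36 to 0.75, and it was -0.021 with WT replicate 1 left out and -0.0034 with Dnmt3l-KO replicate 2 left out.

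Sox5, which acts with Sox6 in cartilage and in neural development, had 6.18 and 8.20 CPM in WT and 4.91 and 11.5 CPM in Dnmt3l-KO. The Dnmt3l-KO libraries were the lowest and the highest of the 4, on either side of the WT range. Its log2 fold change was 0.19 ± 0.43 (SE), with a 95% interval from -0.93 to 1.31. It was -0.55 with Dnmt3l-KO replicate 2 left out and -0.0019 with WT replicate 1 left out, against 0.68 without Dnmt3l-KO replicate 1.

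Sox13, the third SoxD gene, known in T cell development and from binding to a TCF factor, had 2.40 and 3.28 CPM in WT and 2.95 and 2.25 CPM in Dnmt3l-KO. The ranges overlapped, with Dnmt3l-KO replicate 2 the lowest and WT replicate 2 the highest. The log2 fold change was -0.13 ± 0.29 (SE), with a 95% interval from -0.87 to 0.61, and it was 0.11 with WT replicate 2 left out and 0.053 with Dnmt3l-KO replicate 2 left out.

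Sox9, with which Sox5 and Sox6 act in cartilage, had 23.8 and 25.7 CPM in WT and 23.5 and 39.2 CPM in Dnmt3l-KO. Its fold change on the log2 scale was 0.34 ± 0.26 (SE). By FPKM it was 2.91 to 3.99 times as high as Sox6 and 5.71 to 8.54 times as high as Sox5 over the 4 libraries. Their shared target Col2a1, the main cartilage collagen, had 210.1 and 249.7 CPM in WT and 223.4 and 282.9 CPM in Dnmt3l-KO. Its highest library, Dnmt3l-KO replicate 2, was also the highest by CPM for Sox5, Sox6 and Sox9. The same library was highest for Sox2, Sox4, Sox12 and the fibroblast marker Col1a1, so this was not particular to cartilage genes. A link between these levels was not tested. Of the 10 cartilage markers tested, 0 were called in edgeR in either direction, against 0.0203% of all genes tested. An unadjusted p under 0.05 was found for 0 of the 10, against 4.15% of all genes tested. Their median log2 fold change was 0.078, against 0.0062 over all genes tested.

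The SoxE gene Sox10, the neural crest and glial regulator, was counted 46 and 25 times in WT, and 72 and 35 times in Dnmt3l-KO. That is 0.977 and 0.599 CPM in WT and 1.44 and 0.837 CPM in Dnmt3l-KO, with the higher value in replicate 1 of each genotype and overlapping ranges. Sox10 had a log2 fold change of 0.53 ± 0.45 (SE), with a 95% interval from -0.63 to 1.69. It was 0.080 with Dnmt3l-KO replicate 1 left out and 0.93 with WT replicate 1 left out.

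Sox8, which overlaps with Sox9 and Sox10 in neural crest and testis, was the lowest of the 9 genes, with WT counts of 10 and 16 and Dnmt3l-KO counts of 29 and 12. Dnmt3l-KO replicate 1 was the highest library and the other 3 lay close together. Counting error alone gave 95% exact Poisson intervals from 4.80 to 18.4 for the lowest count and from 19.4 to 41.6 for the highest. The log2 fold change was 0.56 ± 0.58 (SE), with a 95% interval from -0.94 to 2.06, and it was -0.045 without Dnmt3l-KO replicate 1. On log2(FPKM + 1) values the difference was 0.060 for Sox8 and 0.13 for Sox10, a scale that understates the change of such low genes.

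Of the 12 neural crest and glia markers, 9 passed the filter and 0 were called in edgeR in either direction, against 0.0203% of all genes tested. An unadjusted p under 0.05 was found for 0 of the 9, against 4.15% of all genes tested. Their median log2 fold change was 0.22, against 0.0062 over all genes tested. The endothelin receptor gene Ednrb had WT counts of 133 and 181 and Dnmt3l-KO counts of 107 and 577, so it was highest in Dnmt3l-KO replicate 2 and not in the library with most Sox10.

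**Figure D3:**
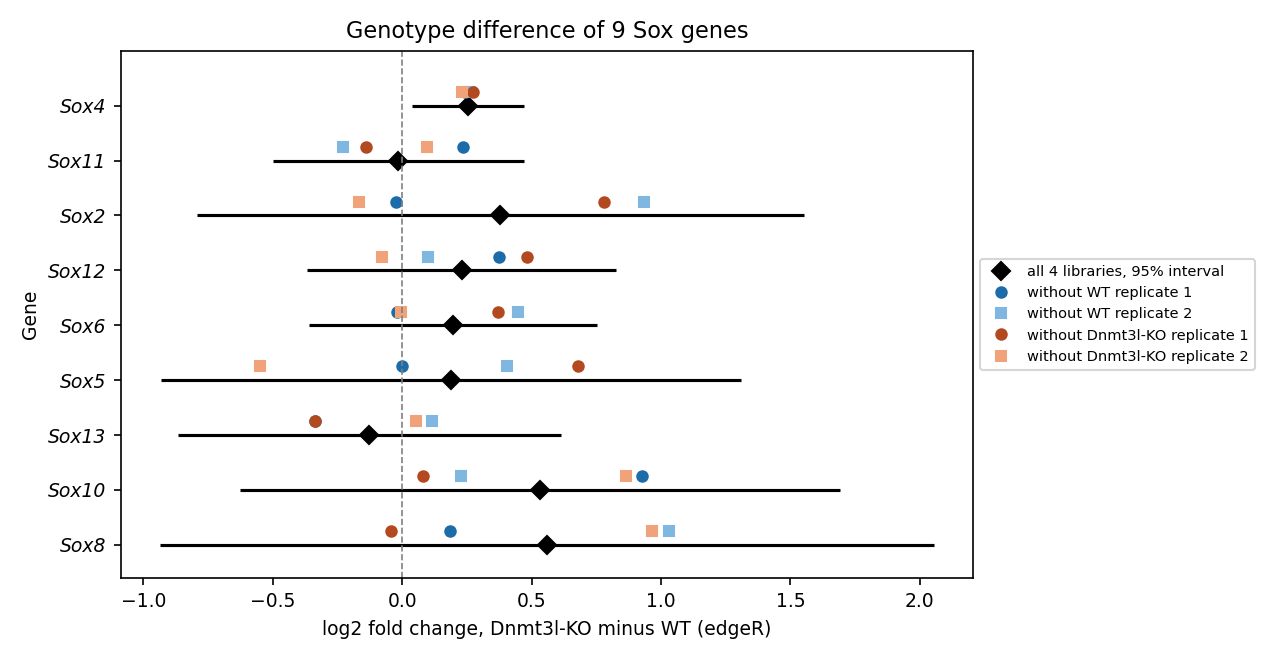
Log2 fold change of each Sox gene, Dnmt3l-KO minus WT, as black diamonds with 95% intervals from the fit of all 4 libraries (edgeR), and above them the value with each library left out in turn. In this fit, which has no replicate block, the interval excludes 0 for Sox4 alone (0.037 to 0.47, before adjustment over all genes), and the values with a library left out fall on both sides of 0 for each gene other than Sox4 and Sox10.

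TCF and LEF factors, the other sequence-specific HMG-box family and the nuclear effectors of Wnt signalling, were measured beside the Sox genes. Of the 4, 0 were called in edgeR in either direction, against 0.0203% of all genes tested. An unadjusted p under 0.05 was found for 2 of the 4, against 4.15% of all genes tested. All 4 had fold changes above 0, against 51.3% of all genes tested. Their median log2 fold change was 0.41, against 0.0062 over all genes tested. Tcf7l1 had 5.54 and 5.42 CPM in WT and 7.73 and 9.07 CPM in Dnmt3l-KO (0.62 ± 0.16 SE, unadjusted p = 0.013, adjusted p = 0.999 in edgeR). Tcf7l2 had 19.5 and 22.0 CPM in WT and 24.2 and 28.5 CPM in Dnmt3l-KO (0.34 ± 0.13 SE, unadjusted p = 0.049, adjusted p = 0.999 in edgeR). In these 2 genes both Dnmt3l-KO libraries lay above both WT libraries, as was the case for 16.2% of all genes tested. The genotypes overlapped in Tcf7 and Lef1, with log2 fold changes of 0.19 ± 0.32 and 0.48 ± 0.32 (SE).

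The estimated counts of Sox5, Sox6 and Sox13 were spread over many RefSeq transcripts, 39, 30 and 14 in the table. Of 90 transcripts of the 9 genes, 78 had a count in some library and 29 passed the filter. In edgeR on transcripts 0 of the 29 were called, with 1 at an unadjusted p under 0.05, where 0.00252% of the 39633 transcripts tested were called and 4.12% had an unadjusted p under 0.05. In the authors' deposited table, 14 of the 90 had an adjusted p, and the lowest was 0.609, for the Sox6 transcript NM_001277328.1. The transcript with the authors' lowest unadjusted p, XM_006507499.1 of Sox6, had no adjusted p there (authors' log2 fold change -1.11). The Dnmt3l-KO values lay above both WT values in 5 of the 29 and below both in 5, where 16.5% and 16.9% of all transcripts tested did.

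The Sox5 counts were led by a different transcript in each genotype. NM_011444.3 was the most abundant in WT, with 62 and 82 counts against 38 and 40 in Dnmt3l-KO. NM_001243163.1 led in Dnmt3l-KO, with 79 and 220 counts against 57 and 27 in WT. As shares of the Sox5 counts, NM_001243163.1 made up 19.6% and 7.89% in WT and 32.2% and 45.7% in Dnmt3l-KO. The genotypes did not overlap for either transcript, and neither was called, with log2 fold changes of -0.93 ± 0.60 and 1.87 ± 0.79 (SE, edgeR, adjusted p = 0.9999 for both).

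Among the Sox6 transcripts, XM_006507499.1 had 64 and 59 counts in WT and 1 count and 0 counts in Dnmt3l-KO, the lowest p of the 29 (edgeR, unadjusted p = 0.0036, adjusted p = 0.9999). NM_001277328.1 went the other way, with WT counts of 1 and 24 and Dnmt3l-KO counts of 167 and 115, and was not called. A different Sox6 transcript led in each of the 4 libraries, with 14.2% to 24.3% of the counts, among them NM_001025559.3 with 214 counts in Dnmt3l-KO replicate 2 and 9 to 23 in the others. The summed counts of Sox6 were 644 and 789 in WT and 811 and 881 in Dnmt3l-KO, and XM_006507498.1 was even across the libraries at 41 to 43 counts. Transcripts of a gene share sequence, and no source used here states how shared reads were divided between them. Of the antisense genes that overlap these loci, Sox5os3 had 0 counts in all 4 libraries and Sox6os 0 to 5. Other lncRNA genes that overlap them in RefSeq were not analysed here. They are Sox5os4, Gm52484, Gm52485, Gm52486 and Gm38531 at Sox5 and Gm51455 at Sox6.

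**Figure D4:**
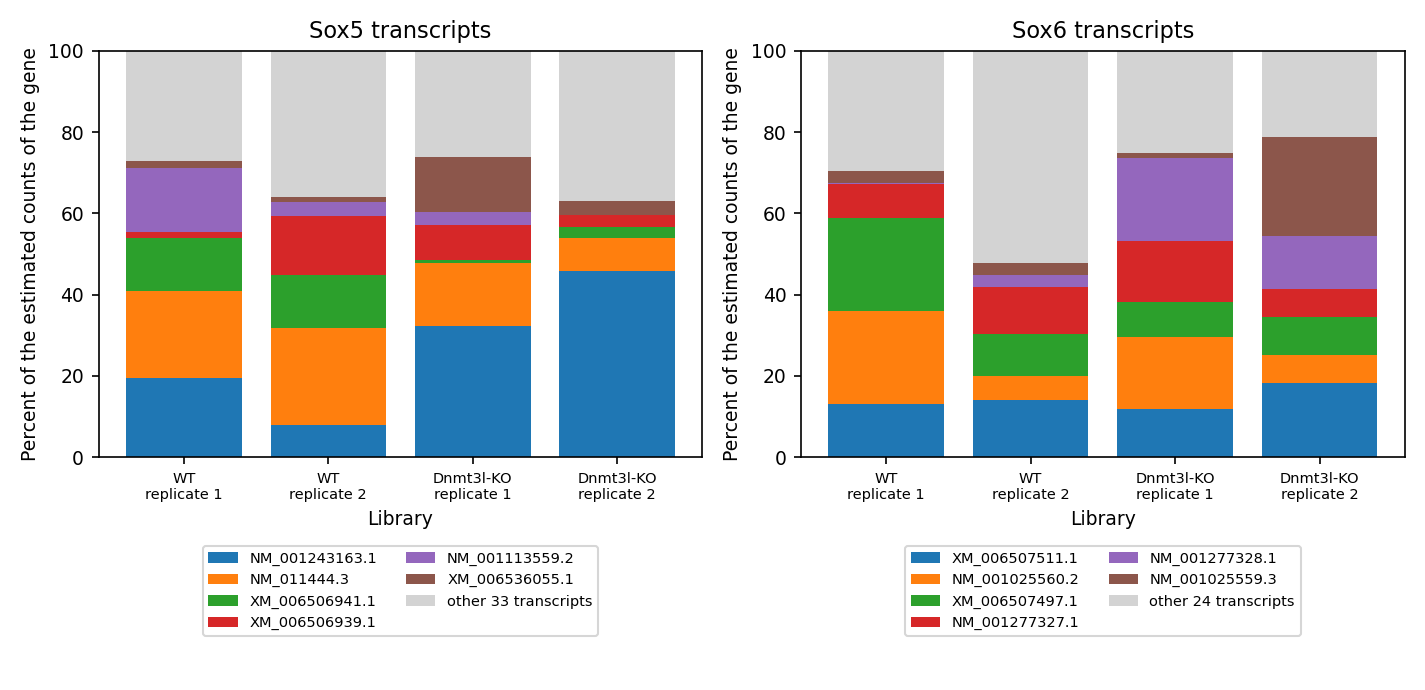
Share of the estimated counts of Sox5 (left) and Sox6 (right) held by the 6 transcripts with the most counts and by the others together, in percent, for each of the 4 libraries. In Sox5 the share of NM_001243163.1 runs from 7.89% in WT replicate 2 to 45.7% in Dnmt3l-KO replicate 2, and in Sox6 no transcript holds more than 24.3% in any library.

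In Sox10 and Sox13 the leading transcript was the same in 3 of the 4 libraries. NM_011437.1 held 39 and 19 of the Sox10 counts in WT and 33 in Dnmt3l-KO replicate 2, and 15 of 72 in Dnmt3l-KO replicate 1, where XM_006520672.1 held 57. NM_011439.2 led the Sox13 counts with 62 and 107 in WT and 47 in Dnmt3l-KO replicate 2, while Dnmt3l-KO replicate 1, at 37, was led by XM_006497274.1 with 45.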

How the data were processed

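The submitters' processing notes name build mm10 and the tools DESeq2 1.8.0, eXpress 1.4.1, Cufflinks 2.2.1 and TopHat2 2.0.12, without their roles. For each RefSeq transcript and library the authors deposited an estimated count (whole numbers) and an FPKM value, and per the file headers also the authors' mean signal, log2 fold change, test score and p-value. Both were summed per symbol here. CPM values use TMM library sizes, so 3 counts came to 0.0601 to 0.0719 CPM. Dnmt3l-KO minus WT was tested on estimated counts with edgeR 4.0.16 under R 4.3.3 (robust quasi-likelihood F-test, TMM, expression filter, Benjamini-Hochberg over 14760 symbols, threshold 0.05), after being tested on simulated data. Standard errors and 95% intervals come from the F statistic. Intervals and floors on counts cover counting error only. Alternatives used DESeq2 1.42.0, limma 3.58.1 on log2(FPKM + 1) or log2(FPKM + 0.1), other scaling, other filters, a replicate block and each library left out. Box sequences and strand came from GENCODE M21, positions from RefSeq GRCm38. The genes and lists were chosen with earlier results of these data known. Named were all 9 Sox genes, genes overlapping them, Dnmt3l and, of each list, up to 4 genes by smallest p and 4 by highest FPKM. Sox1, Sox3, Sox14, Sry, Pou5f1, Lin28a, Utf1, Zfp42, Nanog, Lin28b, Pax6, Neurog2 and single transcripts were named after their values had been seen. Some genes of the marker lists are not reported here by name.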

Additional observations from a re-analysis of the deposited data

How the results depend on the processing

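None of the 9 Sox genes was called in any alternative fit, with a lowest adjusted p of 0.353. Over all genes, edgeR called 3, DESeq2's Wald test 31, edgeR without the filter 8, and limma 6 on log2(FPKM + 1) and 6 on log2(FPKM + 0.1) values, and between 2 and 6 were called with each library left out; the cause was not tested. Sox11 turned in sign on log2(FPKM + 1) and log2(FPKM + 0.1) values, to 0.032 and 0.040. Without a change of sign, log2(FPKM + 1) values moved Sox8 to 0.060, Sox10 to 0.13, Sox5 to 0.097 and Sox13 to -0.030, and log2(FPKM + 0.1) values moved Sox8 to 0.32 and Sox13 to -0.056. With each library left out, the median log2 fold change of the 9 genes ran from 0.053 to 0.27, and single genes from -0.17 to 0.93 (Sox2), -0.55 to 0.68 (Sox5), -0.021 to 0.45 (Sox6), -0.045 to 1.03 (Sox8), -0.23 to 0.23 (Sox11), -0.078 to 0.48 (Sox12) and -0.34 to 0.11 (Sox13). In these fits a genotype with 1 library is assumed to vary like the other. Sox4 and Sox10 kept their sign in all fits, and the other 7 genes turned in at least 1 with a library left out. The count of Sox transcripts called stayed at 0 in all alternatives run. At 10 to 29 counts per library, the interval of Sox8 reaches 2.06 on the log2 scale. Sox8 and Sox10 did not pass the stricter filter of 1 CPM in 2 libraries.

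Replicate numbers are shared between the genotypes, but no label says that they pair the libraries. With the replicate block, edgeR called 4 genes and 0 of the 9, 0 Sox transcripts, and the median of the 9 log2 fold changes was 0.21. In that fit the interval of Sox4 included 0, from -0.0077 to 0.51 (edgeR, unadjusted p = 0.055, adjusted p = 0.999), and Sox5 was at 0.086. Sox2 stayed at 0.38 with a narrower interval, from -0.048 to 0.81 (edgeR, unadjusted p = 0.071, adjusted p = 0.999). Without the block its interval ran from -0.79 to 1.55, so its precision depends on whether the replicates pair. Differences between replicates 2 and 1 had the same sign in both genotypes in 54.5% of the 14760 genes (r = 0.10 across genes, which are not independent replicates) and in 6 of the 9 Sox genes.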

Other observations

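Apart from Sox9, the other Sox genes had few counts. Of the 11 listed, Sox9, Sox7 and Sox21 passed the filter, and 0 were called in edgeR in either direction, against 0.0203% of all genes tested. An unadjusted p under 0.05 was found for 0 of them, against 4.15% of all genes tested. Sox7, known from endothelium, had WT counts of 14 and 11 and Dnmt3l-KO counts of 16 and 11, and Sox21, a SoxB2 gene that counteracts Sox2, had WT counts of 12 and 8 and Dnmt3l-KO counts of 12 and 4. Sox30, a germ cell factor, had 2 to 9 counts. The SoxB1 gene Sox1, the SoxB2 gene Sox14 and Sry had 0 counts in all 4 libraries. Sox2 was thus the SoxB1 gene detected here, with Sox3 at 2 counts in Dnmt3l-KO replicate 1 and 0 in the other libraries. In the marker lists of muscle, endothelium, macrophages and epithelium, 0 genes were called in edgeR in either direction and 0 had an unadjusted p under 0.05. Over all genes tested these shares were 0.0203% and 4.15%.

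RefSeq promoter windows (GRCm38.p6, 250 bases before to 50 bases after a start site) matched 8 of the 9 genes, all but Sox10. The 300-base windows held 47 CpG sites for Sox12, 40 for Sox13, 27 for Sox2, 21 for Sox8 and for Sox11, 12 for Sox4 and 3 for Sox5. Sox6 had 6 windows with 2 to 13. The median over all 32851 windows was 7. Levels did not follow this order, since Sox4, the most abundant of the genes by FPKM, had 12 and Sox13, among the lowest, had 40. The Sox-type motif CATTGTT, searched on both strands, was in 1 of the 13 windows, a Sox6 window, and in 3.78% of all windows. DNA methylation was not measured in these libraries.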
